A study of Rattus norvegicus with 4 samples.

Results

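The 9 genes of the vascular endothelial growth factor (VEGF) system measured here were the ligands Vegfa, Vegfb, Vegfc and Pgf, the receptor tyrosine kinases Flt1, Kdr and Flt4, and the neuropilin co-receptors Nrp1 and Nrp2. They were taken by gene name from the protein-coding genes of the deposited table, which held 22293 such genes. All 9 passed edgeR's filter on low counts, which kept 14719 genes for testing. Dorsal root ganglia (DRG), in which sensory neuron cell bodies lie among glia, fibroblasts and blood vessels, came from wild-type Wistar rats treated as neonates. Of the 4 libraries, 2 were from rats given vehicle (PBS) and 2 from rats given cisplatin, a platinum-based chemotherapeutic, at 0.3 mg/kg. According to the study's methods, injections were intraperitoneal and lumbar ganglia were pooled for each library. Those methods place tissue collection sooner after treatment than the 16 days given by the labels, and no source used here gives the sex of the rats behind a library.

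VEGF ligands are secreted proteins that bind receptor tyrosine kinases on endothelial cells and thereby drive the growth, survival and permeability of blood vessels. VEGF-A signals mainly through the receptor encoded by Kdr (VEGFR2), whereas the receptor encoded by Flt1 (VEGFR1) binds VEGF-A, VEGF-B and placental growth factor and limits the VEGF-A that reaches VEGFR2. VEGF-C signals through the receptor encoded by Flt4 (VEGFR3), best known from lymphatic vessels. Neuropilins have short intracellular parts and act as co-receptors, both for VEGF ligands and for class 3 semaphorins, which guide axons. Sensory neurons themselves can express VEGF ligands and receptors, so that a whole ganglion holds several possible sources of these transcripts.

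The libraries held between 21384801 and 25618417 counts. Defining markers of the ganglion were abundant in each library, with 5835 to 8668 CPM (counts scaled to library size) of the neurofilament gene Nefm, a sensory neuron gene, and 2861 to 4099 CPM of Apoe, a satellite glia gene. The share of counts on mitochondrially encoded genes was 1.53% and 2.58% with vehicle and 5.46% and 4.78% with cisplatin. Across the genes tested, the log2 fold change was lower for longer genes (Spearman's rho = -0.357, a description across genes, which are not independent replicates). With whole tissue, fewer cells of a type and less RNA per cell cannot be told apart.

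After cisplatin, no VEGF ligand or receptor was called differentially expressed. The lowest values relative to vehicle belonged to Nrp2, Kdr and Flt1, with fitted levels 30.4%, 30.0% and 23.8% below those of vehicle-treated rats, and in each of these genes both cisplatin-treated libraries lay below both vehicle-treated libraries. The ligands Vegfb and Pgf differed from vehicle by less than 2% in the fit. Calls required a 1.5-fold change together with an adjusted p under 0.05 (Benjamini-Hochberg) in the quasi-likelihood test of edgeR, which 0.00679% of the genes tested (1 of 14719) met. Of the 9 members, edgeR and DESeq2 each called 0, where DESeq2 called 140 of all genes tested (0.951%). An unadjusted p under 0.05 in edgeR was met by 0 of the members and by 1388 of all genes tested. In direction, 7 of 9 members had a lower and 2 a higher value after cisplatin, and when libraries were scaled by size alone, without TMM, all 9 had a lower value. The median log2 fold change of the members was -0.18, against -0.01 over all genes tested. In 4 of the 9 both cisplatin-treated libraries lay below both vehicle-treated libraries, against 21.2% of all genes tested, and in 0 of the 9 they lay above, against 20.6%. A two-sided exact permutation test on 2 against 2 libraries cannot go below p = 0.333, and the edgeR p-values therefore depend on a spread modelled across genes.

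Vegfb, whose product binds VEGFR1, was the most highly expressed member per gene length, with a mean of 24.9 FPKM (fragments scaled to gene length and library size) over the 4 libraries and a range of 23.3 to 27.0. Of all protein-coding genes, 85.2% had a lower mean. Vegfa, the principal ligand of vessel growth, followed at 16.0 FPKM (range 14.9 to 19.0). The co-receptors Nrp2 and Nrp1 came next, at 11.3 FPKM (7.37 to 13.4) and 11.0 FPKM (9.44 to 13.3), and their ranges overlapped. Pgf, the gene of placental growth factor, was at 7.29 FPKM (6.49 to 8.01). Kdr at 4.62 FPKM (2.94 to 5.88) and Flt1 at 3.07 FPKM (2.23 to 3.72) also overlapped in range. The members of the VEGF-C pathway were the lowest, with Vegfc at 0.951 FPKM (0.849 to 1.16) and Flt4 at 0.440 FPKM (0.315 to 0.569). Apart from those of Nrp2 with Nrp1 and of Kdr with Flt1, the ranges of neighbours in this order did not overlap. The order was the same with CPM per kilobase, scaled by total counts without TMM, in place of FPKM, where 3 pairs of neighbours overlapped.

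**Figure D1:**
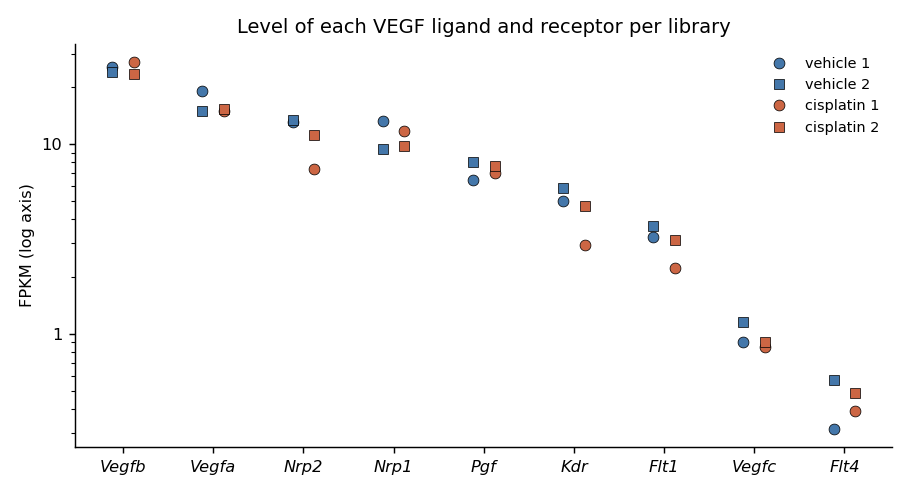
FPKM (log axis) of the 9 VEGF ligands and receptors in each of the 4 libraries, ordered by mean level, with vehicle-treated libraries in blue, cisplatin-treated libraries in orange, circles for replicate 1 and squares for replicate 2. Vegfb lay highest at 23.3 to 27.0 FPKM and Flt4 lowest at 0.315 to 0.569 FPKM, and cisplatin replicate 1 was the lowest library for Nrp2, Kdr and Flt1.

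Among the ligands, Vegfa (ENSRNOG00000019598; chromosome 9, 17340341 to 17355681, Rnor_6.0, plus strand) was covered by 1718 and 1081 counts with vehicle (replicates 1 and 2) and by 1372 and 1297 counts with cisplatin (replicates 1 and 2). Scaled by TMM, the vehicle-treated libraries had 68.6 and 54.9 CPM and the cisplatin-treated libraries 54.0 and 55.1 CPM. Vehicle replicate 1 stood above the other three libraries, which lay close together, and the groups overlapped. The group means were 61.8 ± 9.70 CPM (vehicle) and 54.6 ± 0.794 CPM (cisplatin; SD, n = 2 each). For Vegfa the log2 fold change was -0.18 (standard error 0.19, 95% interval -0.66 to 0.30, adjusted p = 0.776 from edgeR), and without vehicle replicate 1 it was -0.0007. That interval excludes a 1.5-fold rise but not a fall of that size.

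Vegfb (ENSRNOG00000021156; chromosome 1, 222239022 to 222242644, minus strand) had 46.4 and 44.0 CPM with vehicle and 49.4 and 42.5 CPM with cisplatin. The cisplatin-treated libraries held both the highest and the lowest value. Its log2 fold change was 0.02 (95% interval -0.43 to 0.48, adjusted p = 0.972 from edgeR), the narrowest interval of the 9 members and one that lies within 1.5-fold in either direction.

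Pgf (ENSRNOG00000005650; chromosome 6, 108994018 to 109004598, minus strand) had 10.3 and 12.9 CPM with vehicle and 11.2 and 12.2 CPM with cisplatin. Here the vehicle-treated libraries held both extremes. Its log2 fold change was 0.01 (95% interval -0.57 to 0.59, adjusted p = 0.993 from edgeR).

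Vegfc (ENSRNOG00000011416; chromosome 16, 40440207 to 40555576, minus strand), the gene of the lymphatic growth factor VEGF-C, was covered by few counts, 49 and 50 with vehicle and 47 and 46 with cisplatin. These gave 1.96 and 2.54 CPM against 1.85 and 1.96 CPM. The groups did not overlap, but vehicle replicate 1 and cisplatin replicate 2 were equal to 3 digits. This gave a log2 fold change of -0.24 (95% interval -1.20 to 0.72, adjusted p = 0.861 from edgeR). At this depth a change of 1.5-fold in either direction could not be told from none.

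**Figure D2:**
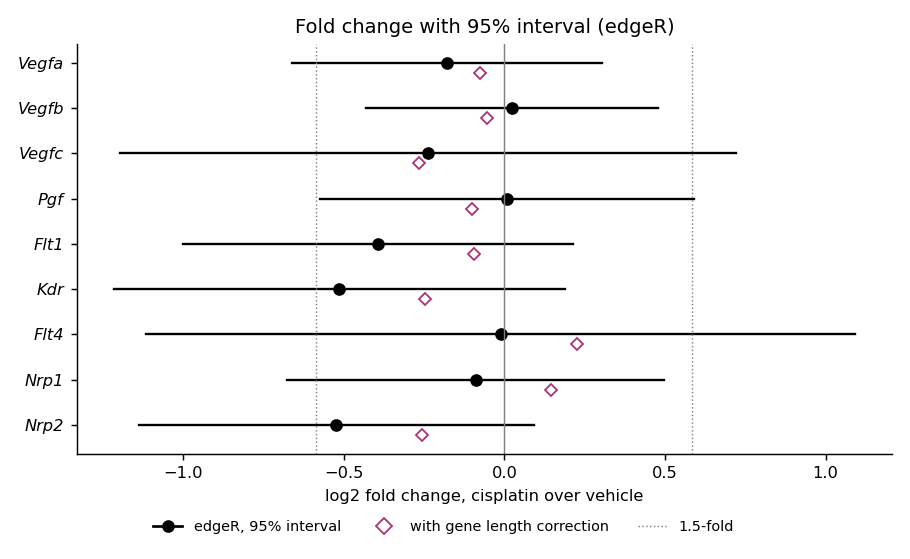
Log2 fold change of each member, cisplatin over vehicle, from edgeR with its 95% interval (black circles and lines) and from the fit with a gene length correction (open diamonds, no interval drawn). Dotted lines mark a 1.5-fold change, all 9 intervals include 0, and Nrp2 (-0.52) and Kdr (-0.51) have the lowest values, which move to -0.26 and -0.25 with the correction.

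Among the receptor tyrosine kinases, Kdr (ENSRNOG00000046829; chromosome 14, 34727623 to 34787183, Rnor_6.0, plus strand) was covered by 806 and 756 counts with vehicle and 484 and 715 with cisplatin. In CPM these were 32.2 and 38.4 against 19.1 and 30.4. Both cisplatin-treated libraries lay below both vehicle-treated ones, although cisplatin replicate 2 was nearer to vehicle replicate 1 than to cisplatin replicate 1. The group means were 35.3 ± 4.39 CPM (vehicle) and 24.7 ± 8.02 CPM (cisplatin; SD, n = 2 each). Between groups, Kdr differed by a log2 fold change of -0.51 (standard error 0.28, 95% interval -1.22 to 0.19, adjusted p = 0.585 from edgeR). Leaving out cisplatin replicate 1 gave -0.20 and leaving out cisplatin replicate 2 gave -0.89, and a correction for gene length brought it to -0.25.

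Flt1 (ENSRNOG00000000940; chromosome 12, 9034308 to 9205905, plus strand) was covered by 577 and 526 counts with vehicle and 403 and 519 with cisplatin. The corresponding levels were 23.1 and 26.7 CPM against 15.9 and 22.1 CPM. As for Kdr, the groups did not overlap and cisplatin replicate 1 was the lowest library. The group means were 24.9 ± 2.60 CPM (vehicle) and 19.0 ± 4.38 CPM (cisplatin; SD, n = 2 each). The log2 fold change of Flt1 was -0.39 (standard error 0.24, 95% interval -0.999 to 0.21, adjusted p = 0.621 from edgeR). Without cisplatin replicate 1 it was -0.16, without cisplatin replicate 2 it was -0.65, and with the gene length correction it was -0.10.

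Flt4 (ENSRNOG00000002511; chromosome 10, 35078726 to 35121599, plus strand) was covered by 46 and 66 counts with vehicle and 58 and 67 with cisplatin. Its levels were 1.84 and 3.35 CPM against 2.28 and 2.85 CPM, so that the vehicle-treated libraries held both the lowest and the highest value. Flt4 had a log2 fold change of -0.01 (95% interval -1.12 to 1.09, adjusted p = 0.995 from edgeR), and its sign changed with the gene length correction (0.23). Its interval was wide enough to include a 2-fold change in either direction.

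Of the co-receptors, Nrp2 (ENSRNOG00000031232; chromosome 9, 69497121 to 69612087, Rnor_6.0, plus strand) was covered by 2138 and 1732 counts with vehicle and 1220 and 1709 with cisplatin. In CPM this was 85.4 and 88.0 against 48.0 and 72.6. The vehicle-treated libraries were close to each other, and both cisplatin-treated libraries lay below them. The group means were 86.7 ± 1.82 CPM (vehicle) and 60.3 ± 17.4 CPM (cisplatin; SD, n = 2 each). Nrp2 had a log2 fold change of -0.52 (standard error 0.25, 95% interval -1.14 to 0.09, adjusted p = 0.551 from edgeR), with the lowest adjusted p of the 9 members. It was -0.24 without cisplatin replicate 1, -0.85 without cisplatin replicate 2 and -0.26 with the gene length correction.

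Nrp1 (ENSRNOG00000010744; chromosome 19, 61332351 to 61485858, plus strand) was covered by 1897 and 1071 counts with vehicle and 1702 and 1305 with cisplatin. This gave 75.8 and 54.4 CPM against 67.0 and 55.5 CPM, with both extremes among the vehicle-treated libraries. Its log2 fold change was -0.09 (95% interval -0.68 to 0.50, adjusted p = 0.915 from edgeR), and with the gene length correction its sign changed (0.15). Both neuropilins had similar levels per gene length but differed in which library was high.

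Across the 4 libraries, the values of Kdr, Flt1 and Nrp2 were more alike than those of any other members. Likeness was measured as the root-mean-square distance between log2 CPM values, each gene centred on its own mean over the libraries. The 3 smallest distances among all pairs of members were 0.0792 for Kdr and Nrp2, 0.0998 for Flt1 and Kdr, and 0.104 for Flt1 and Nrp2. The largest was 0.511, for Flt4 and Nrp1. In cisplatin replicate 1 the centred values of Kdr, Nrp2 and Flt1 were -0.61, -0.57 and -0.44, whereas in cisplatin replicate 2 they were 0.06, 0.02 and 0.03. Nrp1 followed another course, with centred values of 0.28 and -0.20 for vehicle and 0.10 and -0.17 for cisplatin (replicates 1 and 2). Its values were high in replicate 1 and low in replicate 2 of both treatments.

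Marker lists of cell types also varied between libraries. The mean centred value of 10 blood endothelium genes was -0.10 and 0.29 for vehicle and -0.35 and 0.16 for cisplatin (replicates 1 and 2). Thus cisplatin replicate 1, the lowest library for Kdr, Flt1 and Nrp2, was also the lowest for these genes. The 7 pericyte genes were at -0.01, 0.38, -0.39 and 0.02 in the same order. The 8 Schwann cell genes were at -0.24, 0.80, -1.01 and 0.45, and the 10 sensory neuron genes ran the other way, at 0.05, -0.35, 0.41 and -0.11. The part of these cell types in the values of the receptors was not tested.

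**Figure D3:**
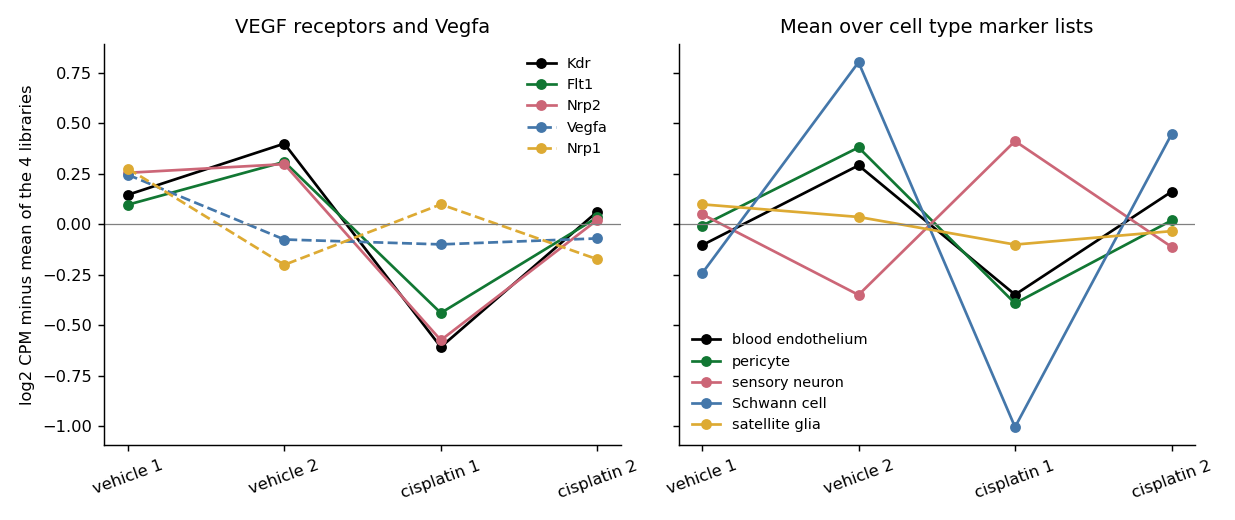
Log2 CPM minus the mean of the 4 libraries for 5 members (left) and averaged over 5 cell type marker lists (right), where lines join the points of a gene or list and the libraries have no order. Kdr, Flt1 and Nrp2 are lowest in cisplatin replicate 1 (-0.61, -0.44 and -0.57), as are the blood endothelium (-0.35), pericyte (-0.39) and Schwann cell (-1.01) lists.

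Many genes outside the VEGF system had the same course over 4 libraries as these receptors. For Kdr, 192 genes lay within a distance of 0.1, and the 5 nearest were Hipk1, Pard3, Med1, Bmi1 and Apoa5. For Flt1 there were 437 such genes, led by Slc38a10, Fam107b, Yy1, Tial1 and Tet1. Vegfa had 400 within that distance, of which the nearest were Ero1l (distance 0.00639), Zscan29, Matr3, Zranb2 and Jag1. Ero1l had 16.7 and 13.5 CPM with vehicle and 13.2 and 13.5 CPM with cisplatin. For Flt4, with its low counts, 83 genes lay within the distance, led by Acp6, Igf1, Abi3bp, Cyp2j10 and Prorsd1. With 4 points for each gene, such likeness is a description only.

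To set the receptors against the vessels in each library, their log2 CPM was compared with the mean log2 CPM of 10 blood endothelium genes (Cdh5, Tek, Tie1, Emcn, Egfl7, Esam, Erg, Sox17, Sox18 and Robo4). Their summed level was 168 and 211 CPM with vehicle and 153 and 200 CPM with cisplatin, which overlapped, and 3 had a higher and 7 a lower value after cisplatin. Their median log2 fold change was -0.22. Of their most highly expressed per gene length, Egfl7 was at -0.20 and Emcn at 0.43. Cdh5, which encodes the endothelial junction protein VE-cadherin, had 26.1 and 33.5 CPM against 29.2 and 36.1 CPM. Cldn5, another endothelial junction gene of the list, was listed at 0 counts in all 4 libraries, and whether the gene models used for counting missed it was not tested. Pecam1 was not matched by name, but an assembled gene without a biotype that carries its annotation had counts.

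Relative to these genes, Kdr stood at 1.31 and 1.16 on the log2 scale with vehicle and at 0.80 and 0.96 with cisplatin. The groups did not overlap, and the difference of -0.36 had an exact two-sided permutation p of 0.333, the smallest that 2 against 2 libraries can give. Within each treatment, the libraries differed less in this ratio than the treatments did. The difference ranged from -0.28 to -0.43 when 1 library at a time was left out. Flt1 relative to the same genes was at 0.83 and 0.64 against 0.54 and 0.50, a difference of -0.22 without overlap, which was -0.12 without vehicle replicate 1 and -0.31 without vehicle replicate 2. Nrp2 was at 2.72 and 2.36 against 2.14 and 2.22, a difference of -0.36, again without overlap. Its vehicle-treated libraries lay nearly as far apart as the treatments, and the difference was -0.18 without vehicle replicate 1 and -0.54 without vehicle replicate 2. Nrp2 is not an endothelial marker, and other cells of the ganglion may contribute to its level. Both ratios had the same exact permutation p of 0.333. None of the ratios was corrected for gene length. Kdr, Flt1 and Nrp2 have gene lengths of 6334, 6968 and 6369 bases, and the endothelial genes 1390 (Emcn) to 4559 (Tek). Across the genes tested, longer genes had lower log2 fold changes, and the part of gene length in these differences was not tested.

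The remaining ratios to the endothelial genes overlapped between the groups. Vegfa was at 2.40 and 1.68 against 2.31 and 1.82, a difference of 0.02 (exact permutation p = 1). Nrp1 differed by 0.12 and Flt4 by 0.23 on the log2 scale, each with an exact permutation p of 0.667. When 1 library at a time was left out, the difference ranged from -0.34 to 0.38 for Vegfa, from -0.32 to 0.55 for Nrp1 and from -0.0011 to 0.46 for Flt4, so that all 3 changed sign. Of ratios between members, that of Flt1 to Kdr, the inhibitory to the signalling receptor of VEGF-A, was -0.48 and -0.52 with vehicle and -0.26 and -0.46 with cisplatin. The groups did not overlap, with a difference of 0.14 (exact permutation p = 0.333). The cisplatin-treated libraries differed from each other by more than that, and the difference was 0.04 without cisplatin replicate 1 and 0.24 without cisplatin replicate 2. Vegfa to Vegfb was 0.57 and 0.32 against 0.13 and 0.37 and overlapped, as did Nrp1 to Nrp2 at -0.17 and -0.69 against 0.48 and -0.39. In all, 9 ratios were compared, of which 4 did not overlap. Of single genes tested, 21.2% did not overlap with cisplatin below vehicle and 20.6% with cisplatin above. A lack of overlap was thus common among genes at large. The Benjamini-Hochberg adjusted permutation p of the 9 ratios was 0.75 or above.

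**Figure D4:**
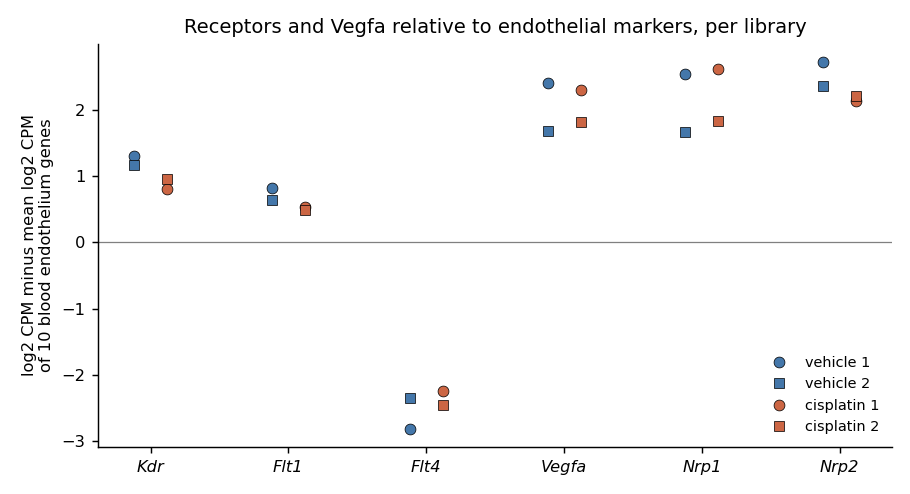
Log2 CPM of 6 members minus the mean log2 CPM of 10 blood endothelium genes in each library, with vehicle-treated libraries in blue, cisplatin-treated libraries in orange, circles for replicate 1 and squares for replicate 2. For Kdr both cisplatin-treated libraries (0.80 and 0.96) lie below both vehicle-treated libraries (1.16 and 1.31), whereas for Vegfa and Nrp1 the points follow the replicate number rather than the treatment.

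The 250 bases before the RefSeq start of Kdr, Flt1 and Nrp2 are shown because these members had the most similar values over the libraries, and those of Vegfa as the principal ligand. They are read 5′ to 3′ on the strand of the gene, from the GRCr8 build, which differs from the build of the counts. Capitals mark the motifs searched on both strands: a hypoxia response core, spelled ACGTG or, in a variant form of the same element, GCGTG. The Sp1 GC box was spelled GGGCGG. The TATA box was spelled TATAAA. The core of ETS factors, a family active in endothelium, was spelled CCGGAA, and that of the cyclic AMP response TGACGTCA. Neighbouring matches can share bases.
Kdr, chr14:32571813-32572062, plus strand: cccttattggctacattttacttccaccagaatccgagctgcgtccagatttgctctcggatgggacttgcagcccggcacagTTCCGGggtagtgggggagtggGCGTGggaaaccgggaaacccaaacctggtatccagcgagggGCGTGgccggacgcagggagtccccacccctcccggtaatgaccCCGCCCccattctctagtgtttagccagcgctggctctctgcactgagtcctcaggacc
Flt1, chr12:12333180-12333429, plus strand: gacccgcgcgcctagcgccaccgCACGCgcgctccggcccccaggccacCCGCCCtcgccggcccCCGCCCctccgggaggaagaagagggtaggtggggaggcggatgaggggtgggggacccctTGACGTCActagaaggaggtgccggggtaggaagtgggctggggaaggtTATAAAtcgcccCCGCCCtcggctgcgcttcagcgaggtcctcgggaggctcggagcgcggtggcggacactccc
Nrp2, chr9:71617004-71617253, plus strand: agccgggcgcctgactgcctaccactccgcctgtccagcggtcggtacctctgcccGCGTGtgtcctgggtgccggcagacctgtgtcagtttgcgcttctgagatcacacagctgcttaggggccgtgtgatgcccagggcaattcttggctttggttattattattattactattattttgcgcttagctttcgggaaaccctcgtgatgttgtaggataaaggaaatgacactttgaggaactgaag
Vegfa, chr9:22452604-22452853, plus strand: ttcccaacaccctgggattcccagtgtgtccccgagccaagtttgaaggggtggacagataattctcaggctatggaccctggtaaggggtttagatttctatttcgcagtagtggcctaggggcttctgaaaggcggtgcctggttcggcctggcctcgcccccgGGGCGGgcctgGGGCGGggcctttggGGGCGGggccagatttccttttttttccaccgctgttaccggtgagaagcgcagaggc

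The hypoxia response core, the letters recognised by the oxygen-regulated factor HIF, had 2 matches in the Kdr window, starting 145 and 103 bases before the start, and 1 each in the Flt1 (227 bases) and Nrp2 (194 bases) windows. It had no match in the Vegfa window shown, and bases further upstream were not searched. In all, 6 of the 10 promoters of the members held it, against 36.7% of 33469 rat promoters of the same length. The GC box was found in Kdr, Flt1 and Vegfa but not in the Nrp2 window, in 7 of 10 promoters of the members and in 30.5% of all. The promoters of the members held 52.8% (Nrp2) to 76.0% (Flt4) G and C, against a median of 51.2% over all promoters. The part of base composition in these shares was not tested. Of the 10, the ETS core was found in Kdr alone, 167 bases before the start, and in 12.6% of all promoters. The TATA box and the cyclic AMP response core were found in Flt1 alone of the members, 75 and 124 bases before its start, and in 12.9% and 1.59% of all promoters. Kdr, Flt1 and Nrp2 thus shared the short hypoxia response core and no other motif of this search. That core also lay in the promoters of Vegfb, Pgf and Nrp1, so it was not particular to them. A match is a run of letters and not evidence of binding.

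Other genes of the pathway were read as 4 lists, of which 57 of 59 genes were tested. No gene of them was called, and 18 were higher and 39 lower in value with cisplatin. Their median log2 fold change was -0.22, against -0.01 over all genes tested. A looser rule, a 1.5-fold change at an unadjusted p under 0.05, was met downwards by 6 of the 57 genes, against 5.18% of all genes tested, and upwards by 0, against 2.77%. These 6 were Hspg2, Adamts3, Ptprb, Prkca, Sema3g and Plxna4. In 19 both cisplatin-treated libraries lay below both vehicle-treated libraries and in 7 above, against 21.2% and 20.6% of all genes tested.

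The list of genes that control the ligands (the related ligand Vegfd, hypoxia factors, processing enzymes and matrix proteins that bind ligand) had the lowest median, -0.57, with 10 of 11 genes lower in value. Hspg2 encodes perlecan, a basement membrane proteoglycan that binds growth factors, and the table holds part of that gene under another name. It had 148 and 149 CPM with vehicle and 13.3 and 45.0 CPM with cisplatin (log2 fold change -2.35, adjusted p = 0.522 from edgeR). Adamts3, a protease that activates VEGF-C, had 7.99 and 5.84 CPM against 4.09 and 3.49 CPM (log2 fold change -0.87, adjusted p = 0.522 from edgeR). The hypoxia factor gene Epas1, with Vhl the most highly expressed of the list per gene length, had 208 and 276 CPM against 162 and 200 CPM (log2 fold change -0.42, adjusted p = 0.605 from edgeR). Vhl, which targets hypoxia factors for degradation, had 69.4 and 82.0 CPM against 65.8 and 71.5 CPM and overlapped.

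Of 25 genes that carry signals from the receptors, 8 had a higher and 17 a lower value, with a median of -0.12. Ptprb encodes an endothelial phosphatase that acts on receptors such as VEGFR2, and had 10.4 and 11.1 CPM with vehicle and 3.11 and 6.04 CPM with cisplatin (log2 fold change -1.23, adjusted p = 0.522 from edgeR). Prkca, a protein kinase C gene downstream of VEGFR2, had 45.4 and 56.7 CPM against 20.9 and 35.8 CPM (log2 fold change -0.85, adjusted p = 0.522 from edgeR). The kinase gene Mapk3, with Hspb1 the most highly expressed of the list per gene length, had 765 and 991 CPM against 1128 and 1091 CPM, and Hspb1, which encodes a heat shock protein, 261 and 237 CPM against 298 and 277 CPM. For both, the cisplatin-treated libraries lay above the vehicle-treated ones, at log2 fold changes of 0.34 and 0.21 (adjusted p = 0.714 and 0.757 from edgeR).

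Genes known to be induced by VEGF in endothelium were split, with 5 of 10 higher and 5 lower in value and a median of -0.07. None of them passed an unadjusted p under 0.05 with a 1.5-fold change. Rcan1, an inhibitor of calcineurin, had 77.2 and 92.6 CPM against 98.8 and 86.7 CPM, and Nr4a1, a nuclear receptor gene, 67.5 and 100.5 CPM against 47.8 and 92.4 CPM. Both overlapped between the groups.

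The neuropilins also bind class 3 semaphorins together with plexins, and of 11 such genes tested 4 had a higher and 7 a lower value, with a median of -0.22. Sema3g, a semaphorin gene of vessels, had 95.4 and 84.3 CPM with vehicle and 55.6 and 60.3 CPM with cisplatin (log2 fold change -0.63, adjusted p = 0.522 from edgeR). Plxna4, which encodes a signalling partner of Nrp1, had 10.9 and 4.22 CPM against 3.27 and 1.91 CPM (log2 fold change -1.54, adjusted p = 0.522 from edgeR). Sema3b, with Plxnd1 the most highly expressed of the list per gene length, was at 856 and 1741 CPM against 463 and 1276 CPM, and overlapped. Plxnd1, the receptor gene for Sema3e on endothelium, had 129 and 143 CPM against 134 and 132 CPM and a log2 fold change of -0.03.

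**Figure D5:**
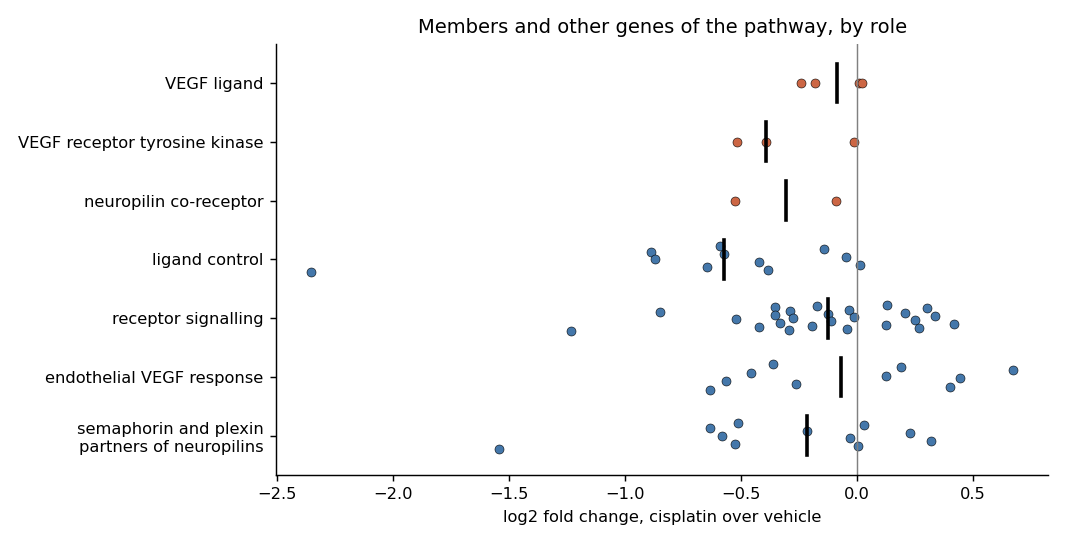
Log2 fold change, cisplatin over vehicle, of the 9 members (orange, 3 upper groups) and of the 57 tested genes of 4 further lists of the pathway (blue), with 1 point for each gene and a black bar at the median of the group. The list of ligand control has the lowest median (-0.57) and its point furthest to the left is Hspg2 (-2.35), and the receptor tyrosine kinases have a median of -0.39.

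Markers of the cells around the vessels were read beside these values. Of 7 pericyte genes, 6 had a lower value after cisplatin (median -0.34), and 2 (Notch3 and Rgs5) were lower by the looser rule, which 5.18% of all genes tested met downwards. Notch3, a receptor gene of mural cells, had 50.3 and 51.4 CPM against 26.8 and 32.0 CPM (log2 fold change -0.79, adjusted p = 0.522 from edgeR), and Rgs5, a pericyte gene, 25.7 and 30.3 CPM against 13.9 and 19.6 CPM (log2 fold change -0.74, adjusted p = 0.522 from edgeR). Pdgfrb, a receptor gene of pericytes, was at -0.34 and overlapped. The 4 lymphatic endothelium genes tested had a median of 0.51, and 3 of them were higher in value. Among these, Pdpn and Reln were at 0.54 and -0.52, and Lyve1 had 3.60 and 2.84 CPM against 4.96 and 3.995 CPM. Prox1, the defining transcription factor, was too low to be tested. Mean FPKM was 36.5 for Pdpn and 13.6 for Reln but 1.22 for Lyve1, and which cells these transcripts came from was not tested. The interval of Flt4, the lymphatic receptor, ran from -1.12 to 1.09 and included the median of this list. It is too wide to tell that median from no change. All 10 sensory neuron genes had a higher value (median 0.35) and all 8 Schwann cell genes a lower one (median -0.49). Satellite glia, fibroblast and meninges, macrophage and erythrocyte genes had medians of -0.17, -0.21, -0.01 and 0.10. By the looser rule, the potassium channel gene Kcnj10 of satellite glia (log2 fold change -1.11) and the collagen gene Col1a2 of fibroblasts (-1.59) were lower and the meningeal gene Ptgds (2.07) was higher, beside 5.18% and 2.77% of all genes tested. The part of these cells in the values of the members was not tested.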

How the data were processed

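Gene expression was measured by RNA sequencing of polyadenylated RNA from DRG of 2 vehicle-treated and 2 cisplatin-treated rats, and samples were grouped by the treatment in their labels. The authors deposited raw counts per gene, and FPKM values, which can be rebuilt from the counts with gene length and 1 constant for each library. Per the paper's methods, reads were mapped to Rnor_6.0 with HISAT2 (2.0.5) and assembled with StringTie (1.3.3b). The submitters' processing notes also name featureCounts (1.5.0-p3). Whether strand was used in counting is not given in the sources used here. No member overlapped another gene with counts, and none had a second gene of its protein name.

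Counts of 22293 protein-coding genes were filtered with filterByExpr (14719 kept), scaled by TMM (factors 0.938 to 1.10) and compared with the quasi-likelihood test of edgeR (4.0.16, in R 4.3.3) without a block. Standard errors and 95% intervals came from the F statistic of each gene. DESeq2 (1.42.0) and limma (3.58.1) on log2(FPKM + 1) and log2(FPKM + 0.1) were alternatives, and the pseudocount understates changes of low genes. The length correction was a lowess curve of span 0.3 per library, used as an offset. The prior count was 2 for profiles and 0.5 for ratios. The floor of 3 counts (0.118 to 0.152 CPM) covers counting error only, because reads that carry no molecular identifier are not independent. All pairs of libraries differed beyond sampling noise. The lowest chi-square per degree of freedom was 47.6, for vehicle replicate 2 and cisplatin replicate 2. It was 124 between the vehicle-treated libraries and 162 between the cisplatin-treated libraries. Rats of a group are numbered in the titles. The edgeR p-values rest only on the spread between these libraries, modelled across genes, and part of that spread may be technical.

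The members and lists were chosen with earlier results of these data known. Named genes were the members, in each list those at an unadjusted p under 0.05 with a 1.5-fold change and the 2 with the highest mean FPKM (not listed singly for cells outside the vessels), and the 5 nearest in pattern to Vegfa, Flt1, Kdr and Flt4. Cdh5, Cldn5, Lyve1 and Prox1 were named after their values were seen. Vegfd, Plxna4, Hba-a1, Hba-a2 and Hspg2 were matched through RefSeq synonyms or annotation, and the last of these only for part of the gene. Egln1 and Pecam1 were not matched by name and not analysed. An assembled gene without a biotype that carries the annotation of Pecam1 had 18.1 and 17.6 CPM in the vehicle-treated and 15.0 and 15.1 CPM in the cisplatin-treated libraries. Promoters were taken from RefSeq (GRCr8). All 9 members were matched, with 10 promoters, and no coordinates were converted between builds. Results for some single genes were left out.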

Additional observations from a re-analysis of the deposited data

How the results depend on the processing

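The number of all genes called was 1 in edgeR as reported, 4 without the filter on low counts, 2 with a minimum of 10 counts in every library, 140 with DESeq2 (50 higher and 90 lower) and 0 to 8 when 1 library was left out, with 0 without cisplatin replicate 1, 2 without vehicle replicate 2, 7 without vehicle replicate 1 and 8 without cisplatin replicate 2. Of the members, 0 were called in each of these fits, where at most 0.951% of all genes were called. Without cisplatin replicate 2, 2 members had an unadjusted p under 0.05, as did 1895 of all 15150 genes tested in that fit. Where 1 library was left out, the lone library of its group was assumed to vary like the other group.

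With the replicate block, the rat number of the titles, edgeR called 1532 genes (494 higher and 1038 lower, 67.8% lower), and with the block plus the length correction 963 (254 higher and 709 lower, 73.6% lower), of which 0 were members in either fit. Same-numbered rats are different animals, so the libraries share only a number, although the differences between replicates 2 and 1 correlated across genes between the groups (Pearson's r = 0.444, genes not being independent replicates). With the block, Nrp2 was at -0.55 (adjusted p = 0.0269 from edgeR) and Kdr at -0.55 (adjusted p = 0.038 from edgeR), both short of a 1.5-fold change. Flt1 was at -0.41 (adjusted p = 0.0968 from edgeR) and Flt4 at 0.032. Low p-values were common in this fit, where 4636 of 14719 genes tested had an unadjusted p under 0.05 in edgeR, 3 of them members. Of all genes tested, 10.4% were called. With the block and the length correction, Nrp2, Kdr and Flt1 were at -0.28, -0.27 and -0.10.

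Vegfa, Vegfc, Flt1, Kdr and Nrp2 had a lower value in all 15 alternatives each, with log2 fold changes of -0.33 to -0.0007, -0.41 to -0.038, -0.65 to -0.10, -0.89 to -0.20 and -0.85 to -0.24. The sign of the other four members changed, and the cause was not tested. Vegfb was at -0.032 with library size alone, -0.054 with the length correction, -0.057 with the block and that correction, and -0.078 to 0.13 with 1 library left out. Pgf was at -0.039, -0.099, -0.095 and -0.13 to 0.18 in the same order. Flt4 was at 0.23 with the length correction, 0.27 with the block and that correction, 0.0023 and 0.028 in limma on log2(FPKM + 1) and log2(FPKM + 0.1), and -0.38 to 0.48 with 1 library left out. Nrp1 was at 0.15 with the length correction, 0.16 with the block and that correction, and -0.30 to 0.18 with 1 library left out. With library size alone the median of all genes tested was -0.06. Of the 9 ratios, 4 did not overlap as reported, and likewise 4 with a prior count of 2 or with the median over the endothelial genes. Depth limited Vegfc and Flt4 most, at 46 to 67 counts a library.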
